A study of Homo sapiens with 4 samples.

Results

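Ubiquitin mRNA in AGS cells was followed through 2 ubiquitin-coding genes, UBB and RPS27A, and through UBBP4, a pseudogene of UBB. The 3 genes were taken by name from a table of 47251 genes, and their 21 transcripts from a table of 180500 transcripts. They were selected on measured values, since UBBP4 stood out in the same comparison of libraries that is described here. The differences between groups of these 3 genes are therefore given as a description, with no test. AGS is an established human gastric adenocarcinoma line. RNA of 4 libraries was sequenced, namely replicates 1 and 2 of cells with a short hairpin RNA (shRNA) against MFAP2, called sh-MFAP2, and replicates 1 and 2 of control cells with a scrambled shRNA. The shRNA was delivered by lentivirus, and no source says whether the replicates of a group were separate cultures. The titles of both sh-MFAP2 libraries name the same hairpin, but their descriptions end in sh1 and sh2, as those of the controls end in control1 and control2. Whether 1 hairpin or 2 hairpins were used is therefore not certain, and the spread of the sh-MFAP2 group could include a difference between hairpins.

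Ubiquitin is a small protein that cells attach to other proteins, mainly at lysine residues, and chains of it mark many of them for the proteasome. UBB encodes polyubiquitin, a head-to-tail row of ubiquitin units that is cut into single units, whereas RPS27A encodes 1 unit fused to a protein of the small ribosomal subunit. UBB is known to be induced by heat and other stress that damages proteins, and RPS27A is usually expressed with the ribosomal protein genes.

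UBBP4 carries 4 copies of the ubiquitin unit where UBB carries 3. A unit is 76 residues or 228 bases long. UBB lies on chromosome 17 of GRCh38 at chr17:16380798-16382745 on the plus strand, and its main transcript UBB-201 has 2 exons with the whole coding sequence in the second. UBBP4, annotated in GENCODE 29 as a transcribed unprocessed pseudogene, lies at chr17:22090743-22205154 on the same strand, and its transcript UBBP4-202 also has 2 exons. The second exon is 1068 bases in UBBP4-202 and 839 bases in UBB-201. The sequences below show the second unit of UBB (chr17:16382136-16382363), the first unit (chr17:22204093-22204320) and the second (chr17:22204321-22204548) and the third unit (chr17:22204549-22204775) of UBBP4, whose closest unit in UBB was in each case the second. They are shown because what can be told of UBBP4 and UBB from reads depends on these differences. They were read from the transcripts of GENCODE 29, and capitals mark bases of UBBP4 that differ from, or are inserted against, the second unit of UBB.
UBB unit 2: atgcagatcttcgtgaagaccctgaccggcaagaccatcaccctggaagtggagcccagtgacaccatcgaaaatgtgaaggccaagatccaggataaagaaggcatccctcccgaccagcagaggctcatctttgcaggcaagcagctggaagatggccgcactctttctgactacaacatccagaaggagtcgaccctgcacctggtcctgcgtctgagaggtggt
UBBP4 unit 1: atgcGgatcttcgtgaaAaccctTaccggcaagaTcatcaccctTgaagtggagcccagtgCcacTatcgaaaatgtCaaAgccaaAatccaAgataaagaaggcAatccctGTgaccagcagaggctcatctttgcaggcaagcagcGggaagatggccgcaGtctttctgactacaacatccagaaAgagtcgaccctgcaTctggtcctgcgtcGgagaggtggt
UBBP4 unit 2: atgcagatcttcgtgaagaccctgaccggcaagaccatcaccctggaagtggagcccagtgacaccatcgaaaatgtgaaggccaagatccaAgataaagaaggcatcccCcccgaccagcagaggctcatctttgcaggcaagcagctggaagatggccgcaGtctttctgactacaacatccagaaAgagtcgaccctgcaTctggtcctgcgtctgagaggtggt
UBBP4 unit 3: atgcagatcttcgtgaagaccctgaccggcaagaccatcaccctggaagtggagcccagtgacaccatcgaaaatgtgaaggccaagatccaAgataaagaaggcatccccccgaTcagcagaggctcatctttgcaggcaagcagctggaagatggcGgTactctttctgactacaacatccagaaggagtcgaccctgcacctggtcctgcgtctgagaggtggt

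The first unit of UBBP4 is the most changed, with 18 mismatches, 1 inserted base and 1 missing base against the second unit of UBB. The closest unit was taken by the number of identical bases. Aligned with the first unit of UBB instead, the first unit of UBBP4 had 20 mismatches and no inserted or missing base. The second unit of UBBP4 has 5 mismatches and encodes a unit that differs from ubiquitin at 1 residue. The third unit has 4 mismatches and lacks 1 base, so that it is 227 bases long and shifts the reading frame. The fourth unit (chr17:22204776-22205003) was closest to the third unit of UBB (chr17:16382364-16382591), with 11 mismatches, which the capitals mark in the second of the next 2 sequences.
UBB unit 3: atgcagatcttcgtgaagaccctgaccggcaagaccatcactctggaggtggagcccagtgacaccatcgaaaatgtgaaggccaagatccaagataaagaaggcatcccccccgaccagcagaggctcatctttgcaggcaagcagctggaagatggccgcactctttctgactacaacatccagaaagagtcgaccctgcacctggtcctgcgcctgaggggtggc
UBBP4 unit 4: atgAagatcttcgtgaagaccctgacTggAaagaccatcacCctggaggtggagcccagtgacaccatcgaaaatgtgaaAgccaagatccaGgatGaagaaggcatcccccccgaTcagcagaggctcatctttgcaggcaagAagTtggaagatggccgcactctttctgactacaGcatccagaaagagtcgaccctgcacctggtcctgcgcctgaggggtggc
Within UBB itself the second unit differs from the first at 8 bases and from the third at 8 bases, so that the middle units of UBBP4 are nearer to a unit of UBB than the units of UBB are to each other. The first exons of UBBP4-202 and UBB-201 are 85.6% identical where they align, and the parts after the last unit are 95.8% identical. The longest open reading frame of UBBP4-202 is 224 codons, against 229 in UBB-201. It opens at the start of the first unit and ends within the third, so that the fourth unit is not part of it. Translated alone, the first and the fourth unit of UBBP4 differ from ubiquitin at 8 and at 4 residues.

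Parts of UBBP4-202 cannot be told from UBB by sequence. Of its windows of 50 bases, 255 of 1410 (18.1%) occur unchanged in a transcript of UBB, and none of the remaining 1155 occurs in a transcript of any other gene. With 31 bases 413 of 1429 windows (28.9%) were shared with UBB, and with 100 bases 36 of 1360 (2.65%) were shared. Seen from UBB-201, 229 of 1176 windows of 50 bases (19.5%) occur in UBBP4, and 646 (54.9%) occur in no other gene. The read length is not given in the sources used here. RPS27A-201 shares no window of 31 bases or more with UBBP4. Of its windows of 50 bases, 634 of 1022 (62.0%) occur in no other gene, and 18 other annotated genes, mostly RPS27A pseudogenes, share at least 31 bases with it.

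**Figure D1:**
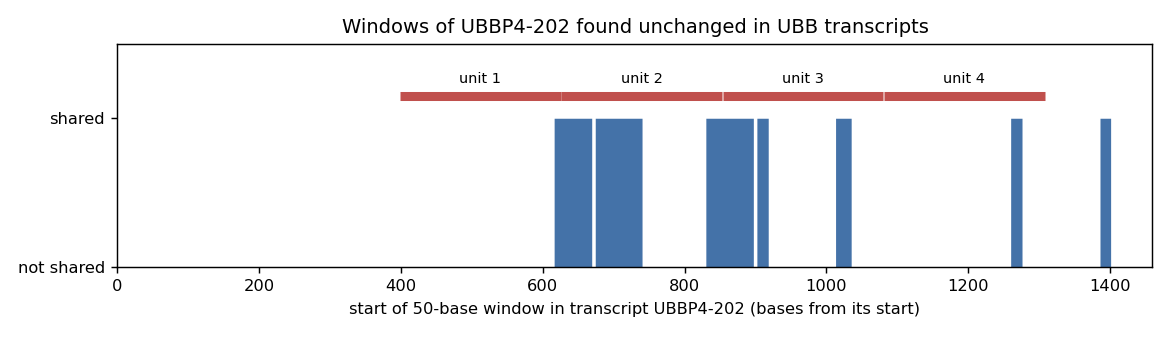
Windows of 50 bases of transcript UBBP4-202 that occur unchanged in a UBB transcript, by the start of the window in bases from the start of the transcript (blue), with the 4 ubiquitin units marked above (red). Shared windows lie mostly in the second and the third unit, and none starts in the first exon.

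The values are taken as FPKM, which scales fragments to feature length and library depth, because the tables name no unit. Low values of genes with a single transcript lay on steps that imply 54800000 to 75060000 reads per library, with 61.2% to 62.5% of low values within 0.05 of a whole step. The step was chosen as the best fit to these same low values, so that the depths, and read numbers derived from them, are estimates. MFAP2, the target of the shRNA, had 0.0116 and 0.0138 FPKM in the controls and 0 in both libraries with the hairpin, too low to check the labels. The epithelial markers EPCAM, KRT8, KRT18, KRT19 and ELF3 ran from 24.4 to 803 FPKM, whereas PTPRC, CD3E, PECAM1, VWF, LUM and DCN did not exceed 0.0656 FPKM. CD68 ran from 3.12 to 7.85 FPKM and COL1A1 from 2.07 to 4.92 FPKM, both lower in sh-MFAP2, and their part in the values below was not tested. In bulk RNA, fewer cells with a transcript and less of it per cell cannot be told apart.

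UBB, the gene of the 3-unit polyubiquitin, was the most abundant of the 3 genes in every library by the gene table. Its values were 224.7 and 268.7 FPKM in replicates 1 and 2 of sh-MFAP2, and 343.5 and 236.9 FPKM in control replicates 1 and 2. The groups overlapped, control replicate 1 being the highest library and sh-MFAP2 replicate 1 the lowest. On log2(FPKM + 1) the difference of sh-MFAP2 minus control was -0.21 ± 0.30 (standard error from the 2 replicates per group, n = 2 per group). Without control replicate 1 it was 0.05, so that its direction rests on that library.

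RPS27A encodes ubiquitin fused to the ribosomal protein eS31 and lies at chr2:55231903-55235853 on the plus strand. It had 193.4 and 202.8 FPKM in sh-MFAP2 cells against 188.9 and 144.0 FPKM in controls. Both sh-MFAP2 libraries lay above both controls, by little in the case of control replicate 1, as was so for 17.5% of all genes tested. The difference was 0.26 ± 0.20 on the log2 scale (standard error, n = 2 per group), and 0.07 without control replicate 2.

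UBBP4 had 0.0277 and 4.2e-05 FPKM in sh-MFAP2 cells against 7.54 and 9.05 FPKM in controls. The groups did not overlap, and both sh-MFAP2 libraries were near 0, but this is the pattern for which the gene was chosen. The difference was -3.19 ± 0.12 on the log2 scale (standard error, n = 2 per group), a scale on which the pseudocount of 1 sets most of the size for a gene near 0. The pseudocount also hides the 659-fold range within sh-MFAP2, so that the standard error comes mostly from the controls. Both sh-MFAP2 libraries lay below both controls in 31.4% of all genes tested. Calls at p under 0.01 and adjusted p under 0.05 by limma made up 0.273% of the genes tested. A value under 10% of the highest in 1 library beside at least 5 FPKM in another, as in UBBP4, was found in 2.06% of them.

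**Figure D2:**
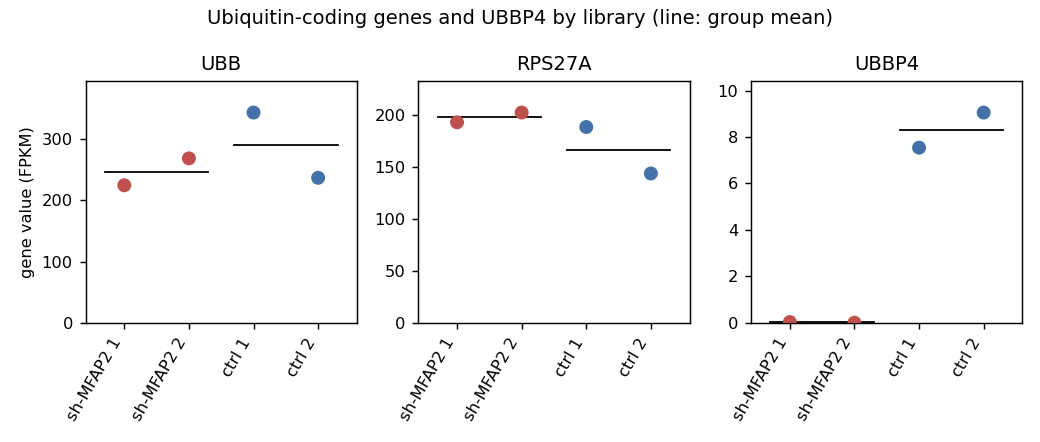
Gene values in FPKM of UBB, RPS27A and UBBP4 in the 4 libraries (points, red for sh-MFAP2 and blue for control, each gene on its own axis from 0), with the mean of each group as a line. UBBP4 is near 0 in both sh-MFAP2 libraries and at 7.54 and 9.05 FPKM in the controls, while the UBB points of the groups overlap.

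On the inferred depth, the control values of UBBP4 correspond to 651 and 991 reads and that of sh-MFAP2 replicate 1 to 2.46 reads. The value in sh-MFAP2 replicate 2 corresponds to 0.00336 of a read, and any depth under 1.63e+10 reads would make it less than 1 whole read. Such a value is not a count of whole reads assigned to UBBP4. Transcript UBBP4-202 carried the whole value of the gene in every library, and UBBP4-201, the other transcript in the table, was listed at 0 throughout. No other gene overlaps UBBP4 in GENCODE 29. The 3 genes within 200 kb of it that were analysed here, the lincRNA genes LINC02002, AC138761.3 and FAM27E5, were listed at 0 in all 4 libraries.

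The gene and transcript tables do not give UBB and RPS27A in the same order. A gene's value equalled its transcript values times their lengths, added up and divided by 1 length that was the same in all 4 libraries. That length was 1621 bases for UBB and 3130 bases for RPS27A, whereas their main transcripts are 1225 and 1071 bases long. The gene value of RPS27A is thus spread over a much longer feature than its mRNA. Summed over transcripts, RPS27A had 702.9 and 748.4 FPKM in sh-MFAP2 cells against 690.1 and 524.7 FPKM in controls. UBB summed to 339.7 and 399.6 FPKM in sh-MFAP2 cells against 476.4 and 347.1 FPKM in controls. RPS27A was then above UBB in every library, the reverse of the gene table.

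By gene values UBB made up 53.7% and 57.0% of the mRNA of UBB and RPS27A together in sh-MFAP2 and 64.5% and 62.2% in the controls. The difference of the group means was -7.99 percentage points, and the groups did not overlap. By sums of transcripts the share of UBB was 32.6% and 34.8% against 40.8% and 39.8%, a difference of -6.63 points in the same direction. In sums of protein-coding transcripts alone, which leave out retained introns, UBB held 39.2% and 42.7% against 49.8% and 49.1%. The share of UBB was thus lower in both sh-MFAP2 libraries on each of these scales, although the level of UBB itself overlapped between groups. RPS27A holds the rest of each sum, so that its share adds no separate measurement.

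Weighted by the ubiquitin units in each protein, 3 for UBB and 1 for RPS27A, UBB came first in every library on both scales. By sums of transcripts UBB supplied 59.2% and 61.6% of the units encoded by both genes in sh-MFAP2 and 67.4% and 66.5% in the controls. By gene values it supplied 77.7% and 79.9% against 84.5% and 83.1%. These shares are of encoded units and assume the full protein from every transcript, although UBB-204 encodes 2 units. The sums of RPS27A also count transcripts with retained introns. In sums of protein-coding transcripts alone, UBB supplied 65.9% and 69.1% of the units in sh-MFAP2 against 74.9% and 74.3% in the controls.

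**Figure D3:**
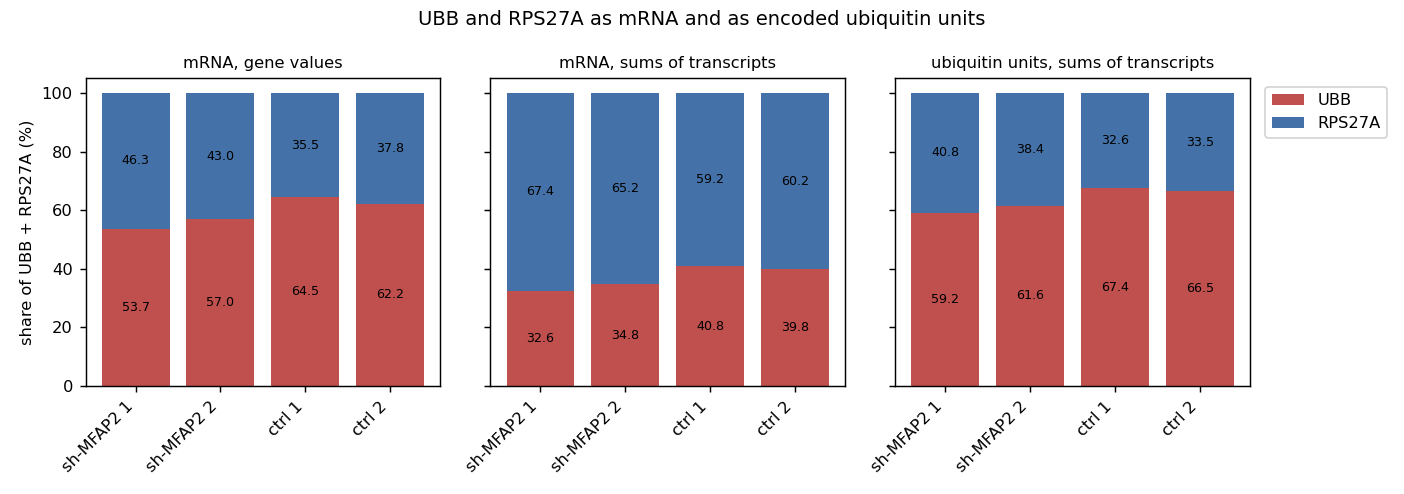
Shares in percent of UBB and RPS27A in their sum in each of the 4 libraries, as mRNA by gene values (left), as mRNA by sums of transcripts (middle) and as encoded ubiquitin units by sums of transcripts (right). UBB has the smaller share in both sh-MFAP2 libraries in each panel, and RPS27A is ahead of UBB only in the middle panel.

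Among the 11 transcripts of the 3 genes that averaged 1 FPKM or more, 4 lay higher in both sh-MFAP2 libraries and 2 lay lower, UBBP4-202 among the latter. Over all 22312 transcripts with such a mean, 17.8% lay higher and 24.9% lay lower in both. UBB-201, the full transcript, had 237.4 and 292.6 FPKM in sh-MFAP2 cells against 427.3 and 265.9 FPKM in controls, with overlapping groups. UBB-204 had 95.9 and 97.4 FPKM in sh-MFAP2 cells against 34.5 and 75.0 FPKM in controls. UBB-204 lay above both controls in both sh-MFAP2 libraries, and control replicate 1, which had the most UBB-201, had the least UBB-204. UBB-207, a transcript without a coding sequence, was at 9.70 FPKM in control replicate 1 and at 0.494 to 0.864 FPKM in the other libraries.

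UBB-204 is annotated with an intron of 228 bases (chr17:16382131-16382358) inside the coding sequence, exactly 1 ubiquitin unit. Because the units of UBB are so alike, joining its ends gives a sequence that is not particular to it. Every window of up to 108 bases of UBB-204 also occurs in UBB-201, and a window of 109 bases is the shortest that can differ. The split of UBB between these 2 transcripts thus rests on no stretch of up to 108 bases that is particular to UBB-204.

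The main RPS27A transcript, RPS27A-201, had 314.1 and 311.5 FPKM in sh-MFAP2 cells against 262.6 and 205.5 FPKM in controls, without overlap. RPS27A-210, with a retained intron, lay the other way, at 9.70 and 11.0 FPKM against 42.7 and 28.8 FPKM. RPS27A-208, also with a retained intron, was second in level at 165.0 and 200.3 FPKM against 175.5 and 136.5 FPKM, with overlapping groups. The coding transcripts RPS27A-203 and RPS27A-202 overlapped as well, at 107.6 to 148.1 FPKM and at 45.8 to 88.7 FPKM over the 4 libraries. Of the windows of 50 bases of RPS27A-210, 315 of 1110 (28.4%) occur in no other RPS27A transcript, so that it can be told apart by sequence more readily than UBB-204.

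Whether UBBP4 and UBB traded values was examined in RPM, reads scaled to library depth but not to length, computed as the FPKM value times the length in kilobases. UBB had 364.2 and 435.5 RPM in sh-MFAP2 and 556.9 and 383.9 in the controls. UBBP4 had 0.0404 and 6.13e-05 RPM in sh-MFAP2 and 11.0 and 13.2 in the controls. UBBP4 thus held 1.94% and 3.33% of the sum of both in the controls, and 0.0111% and 1.41e-05% in sh-MFAP2. If sh-MFAP2 libraries had gained in UBB what they lacked in UBBP4, UBB would be higher there by about 12.1 RPM. The difference in UBB (sh-MFAP2 minus control) was instead -70.5 RPM on average, and its libraries differed by 71.3 within sh-MFAP2 and by 172.9 within the controls. An exchange of the size of UBBP4 would not be visible against this spread, since the smaller of these gaps was 5.40 times the highest UBBP4 value.

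Adding UBBP4 to UBB did not even out the libraries. The standard deviation over the 4 libraries was 86.5 RPM for UBB and 89.3 for the sum. UBBP4 is too small beside the spread of UBB for this comparison to decide whether values were exchanged. On log2(FPKM + 1) the difference of UBB plus UBBP4 between the groups was -0.26, near that of UBB alone. UBB-204 was the most abundant UBB transcript that was higher in both sh-MFAP2 libraries, at 67.5 and 68.6 RPM against 24.3 and 52.8. UBB-201 had 290.8 and 358.5 RPM against 523.5 and 325.8, with overlapping groups. The antisense gene RP11-138I1.4, which overlaps UBB, was at 0.0818 to 0.345 FPKM. Its reads that fall in the overlap cannot be told from those of UBB without strand, which the sources used here do not state.

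**Figure D4:**
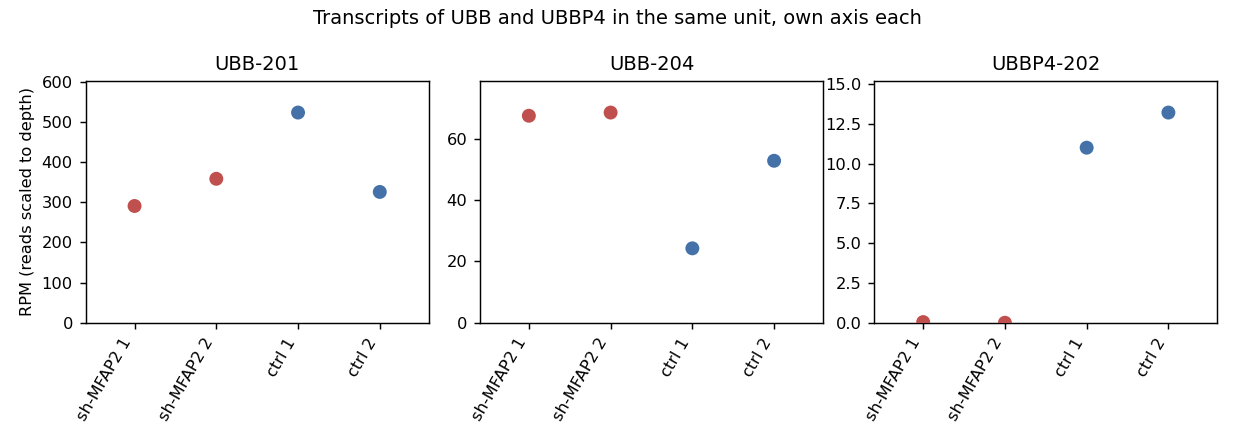
Values in RPM (FPKM times length in kilobases) of UBB-201, UBB-204 and UBBP4-202 in the 4 libraries (red for sh-MFAP2, blue for control), each transcript on its own axis from 0. UBBP4-202 reaches 13.2 RPM, which is small beside the differences between libraries in UBB-201.

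UBBP4 was set beside the 79 other annotated pseudogenes averaging 1 FPKM or more. UBBP4, chosen for its pattern, passed this filter through the controls alone. Of the 79 others, 16 reached 5 FPKM in a library, and none of these 16 was under 10% of its highest value in another. This pattern was found in 2.06% of all genes tested, which include genes that never reach 5 FPKM. At such a share, 16 genes are too few for its absence to set UBBP4 apart from other pseudogenes. Of the 79, 64 had a highest value within 2-fold of the lowest and 77 within 5-fold. ZNF321P ran from 0.0470 to 2.74 FPKM, and RPL26P30 was listed at 0 in 1 library and reached 1.67 FPKM. These were named after their values were seen.

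Pairs of pseudogene and parent were matched by name. Of the 39 other pairs with a pseudogene mean of at least 1 FPKM, 6 reached 5 FPKM in a library, and none of the 6 was near 0 in another. SBDSP1, the most abundant, was at 14.4 and 16.0 FPKM in sh-MFAP2 cells against 15.6 and 15.4 FPKM in controls, 40.0% of SBDS on average. RPL9P9 was at 30.2 and 6.60 FPKM against 9.76 and 9.78 FPKM, with sh-MFAP2 replicate 1 apart from the rest. GTF2IP4 and GTF2IP1 were at 8.31 to 11.5 and 6.30 to 9.99 FPKM, and HERC2P2 was at 3.84 to 5.22 FPKM, each lower in both sh-MFAP2 libraries. UBBP4 averaged 1.55% of UBB, the smallest percentage of the parent among these 6 pairs. The 5 others were named for a high pseudogene mean. Among less abundant pseudogenes, RPL23AP82 (1.12%), RPL23AP7 (0.540%), RPL26P30 (0.405%) and FTH1P10 (0.356%) had smaller percentages of their parents. By gene values UBBP4 was 2.19% and 3.82% of UBB in control replicates 1 and 2.

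**Figure D5:**
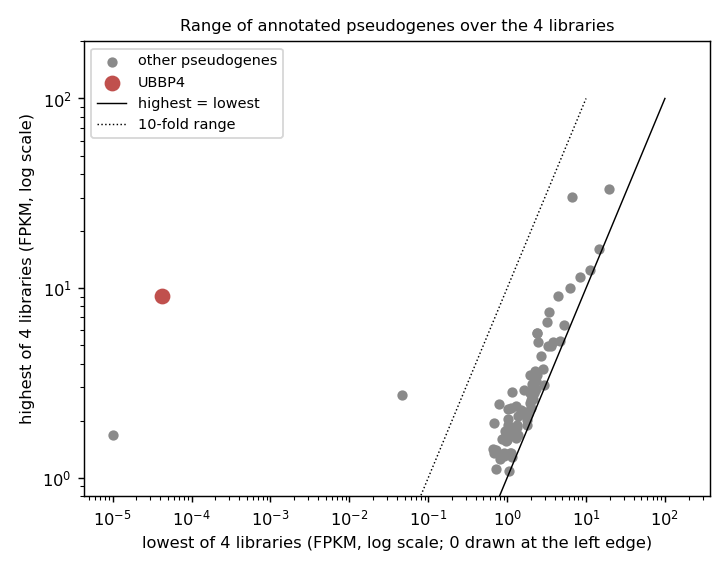
Lowest and highest value over the 4 libraries (FPKM, both axes logarithmic) of 80 annotated pseudogenes that averaged at least 1 FPKM, with UBBP4 in red and RPL26P30, listed at 0 in 1 library, drawn at the left edge. Most lie within 2-fold of the line of equal values, and 16 of the 79 others reach 5 FPKM. GPX1, with a highest value of 267.4 FPKM, lies above the upper edge of the axis.

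The genes around ubiquitin were taken as lists of E1 enzymes, precursor processing and deubiquitinating enzymes, ubiquitin-like modifiers, small ribosomal subunit proteins and proteotoxic stress genes. Of 90 genes, 82 were tested and none was called by limma at p under 0.01 and adjusted p under 0.05. Over all genes tested 0.273% were called, so that the absence of calls among 82 genes is not particular to them. At an unadjusted p under 0.05 there were 8 of the 82, 2 of them higher and 6 lower, against 1214 (12.3%) of all 9873 genes tested. The median over the 82 genes was 0.06 on the log2 scale, against -0.05 over all genes tested, of which 42.0% had a higher mean in sh-MFAP2.

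Of 21 tested genes of ubiquitin activation and processing, which include VCP and its cofactors NPLOC4 and UFD1L beside enzymes that activate or cut ubiquitin, 3 had a higher and 18 a lower mean in sh-MFAP2 (42.0% higher over all genes), with a median of -0.12 on the log2 scale. In 11 of them both sh-MFAP2 libraries lay below both controls, against 31.4% of all genes. VCP, the segregase that extracts ubiquitylated proteins, was the most abundant at 79.8 to 97.5 FPKM. UBA1, the main E1 enzyme, was at 54.5 and 43.5 FPKM against 48.3 and 52.7 FPKM. UCHL3, a hydrolase that can trim ubiquitin precursors, was at 39.0 and 40.2 FPKM against 43.3 and 41.6 FPKM.

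Of 16 tested ubiquitin-like modifiers, 10 had a higher and 6 a lower mean. In 5 of them both sh-MFAP2 libraries lay above both controls, against 17.5% of all genes, and in 4 below both, against 31.4%. ISG15, the interferon-induced modifier, was at 577.4 and 631.1 FPKM in sh-MFAP2 cells against 276.6 and 247.0 FPKM in controls, a difference of 1.20 on the log2 scale (limma, adjusted p = 0.137). Its groups did not overlap, but it did not pass the adjusted threshold. FAU, a ubiquitin-like protein fused to a small ribosomal subunit protein much as RPS27A is, was at 149.0 and 162.0 FPKM against 121.4 and 114.4 FPKM (limma, adjusted p = 0.393). SUMO2, which forms chains of its own, was at 71.0 and 95.9 FPKM against 110.8 and 110.0 FPKM.

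Of 32 small ribosomal subunit genes, whose products share the ribosome with that of RPS27A, 26 had a higher and 6 a lower mean (42.0% higher over all genes), with a median of 0.14 on the log2 scale. In 9 of them both sh-MFAP2 libraries lay above both controls, against 17.5% of all genes. RPS2 at 688.5 to 1056 FPKM and RPS27 at 521.3 to 877.4 FPKM were among the most abundant, each with overlapping groups. RPS27A, at 0.26, lay on the same side as most of the list.

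Of 14 tested proteotoxic stress genes, 7 had a higher and 7 a lower mean, with a median of 0.00 on the log2 scale. HSPA8, the constitutive HSP70 chaperone, was at 775.1 and 632.0 FPKM against 588.6 and 414.3 FPKM. HSP90AB1 and HSP90AA1, the cytosolic HSP90 chaperones, were at 524.5 and 560.2 FPKM against 708.8 and 724.2 FPKM and at 504.5 and 520.7 FPKM against 637.1 and 655.7 FPKM. They lay lower in both sh-MFAP2 libraries, with an adjusted p of 0.375 and 0.394 in limma. Of the 14 genes, 4 lay lower in both, against 31.4% of all genes, and 2 lay higher in both, HSPA8 among them, against 17.5%.

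By distance between centred log2(FPKM + 1) values over the 4 libraries, the genes nearest to UBB were RBM4 (0.06), VPS72 (0.07) and LRIG3 (0.09). Those nearest to RPS27A were NFKBIA (0.04), SPATA24 (0.05) and RPS12 (0.06), of which RPS12 encodes a small ribosomal subunit protein. Those nearest to UBBP4 were H2AFX (0.55), URB1-AS1 (0.60) and CCDC6 (0.75). With 4 points per gene these are given as a description. These distances grow with the size of a gene's change, so that they are not compared between the 3 genes. H2AFX was at 8.54 and 7.82 FPKM in sh-MFAP2 cells against 63.0 and 56.4 FPKM in controls.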

How the data were processed

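RNA of 4 AGS libraries was analysed, 2 sh-MFAP2 and 2 control, grouped by their labels. The authors deposited a gene table and a transcript table, whose values were taken as FPKM from the values themselves. The genome build per the labels is hg38, and the aligner, the program that made the FPKM values and its annotation are not given in the sources used here. Depth was inferred from the step between low values, and counting intervals cannot be given from FPKM.

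All genes averaging 1 FPKM or more were tested on log2(FPKM + 1) with limma 3.58.1 (lmFit, eBayes with trend) under R 4.3.3, with Benjamini-Hochberg adjustment, and calls at p under 0.01 and adjusted p under 0.05. With 2 libraries per group the p-values rest on the spread between these libraries, which may be technical, and on variance that limma shares between genes. The fit was tested on simulated data. Members and lists were chosen with earlier results of these data known. Named genes were the members, the called genes and 3 most abundant genes of each list, the 3 nearest profiles per member and the 5 pseudogene and parent pairs with the highest pseudogene mean. ISG15 and FAU were thus named as the most abundant of a list that was itself chosen with earlier results known. Others (ZNF321P and RPL26P30 among them) were chosen after their values were seen. Pairs are named X and XP with digits, kept where GENCODE 29 calls the gene a pseudogene, since the pattern alone takes in other genes. GENCODE 29 (GRCh38) held 43715 of the 47251 gene identifiers and gave sequences and coordinates. Windows were compared on both strands, and units were aligned with Biopython 1.88. Python 3.11.15, pandas 2.3.3, numpy 2.4.6 and matplotlib 3.10.9 were used. Of the UBB pseudogenes only UBBP4 was analysed here. Results of some genes under these rules are not reported here, and ubiquitin supply is given for UBB and RPS27A alone.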

Additional observations from a re-analysis of the deposited data

How the results depend on the processing

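UBB, RPS27A and UBB plus UBBP4 moved by less than 1 standard deviation between replicates under quantile normalization, sums of transcripts, a pseudocount of 0.1 and scaling by median of ratios. With a pseudocount of 0.1 the log2 difference of UBBP4 became -6.21, which follows from its values near 0. With sums of transcripts the difference in UBBP4 as a percentage of UBB became -2.09 points, since these sums are over different lengths, and that in the share of UBB in UBB plus RPS27A was -6.63 points. Leaving out each library in turn gave log2 differences of -0.48 to 0.05 for UBB, 0.07 to 0.46 for RPS27A, -3.31 to -3.07 for UBBP4 and -0.51 to -0.00 for UBB plus UBBP4. The UBB log2 fold change turned direction, to 0.053, without control replicate 1, and RPS27A fell to 0.07 without control replicate 2. The UBB share ran from -9.61 to -6.37 points and UBBP4 as a percentage of UBB from -3.82 to -2.19 points.

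The number of genes called by limma was 27. It was 6 with no filter beyond a value above 0, and 9 with a mean of at least 5 FPKM, which leaves out UBBP4. With the replicate block it was 0, with 722 at an unadjusted p under 0.05. The block leaves fewer residual degrees of freedom, and the cause of the lower counts was not tested. Leaving out a library leaves a group without replicates, so that calls of those fits are not given. Same-numbered libraries did not deviate together (correlation -0.06 across genes), so the replicate numbers were not taken to pair them. The ubiquitin pathway lists had 0 genes called under every setting run with all libraries, with 3 to 10 genes at an unadjusted p under 0.05.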
